A study of Mus musculus with 12 samples.

Results

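Hepatocytes that carried a P16 vector were compared with hepatocytes that carried only a GFP vector, 48 h after removal of 70% of the liver. The comparison took 6 of the 12 libraries of the study, 3 mice in each group, chosen by the vector and the time on their labels. It covered the 12257 of 31053 annotated genes that passed a filter on low counts. Both groups were wild-type C57BL/6J mice aged 3 months on standard chow that had received an adeno-associated virus of serotype AAV8 through the tail vein. The control mice received AAV8-TBG-eGFP and the others AAV8-TBG-eGFP-P16, so eGFP, the virus and the operation were common to both groups. The operation followed the injection by 1 week, and the cells were freshly isolated by collagenase perfusion, looked over by microscopy for viability and purity, and made into poly(A) libraries. TBG is a promoter active in hepatocytes, so P16 was driven in that cell type from a delivered construct and not from its own locus. No uninjected or sham-operated mice entered the comparison, the share of hepatocytes that took up the vector is not given in the labels, and neither is the sex of the mice.

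P16 belongs to the INK4 family of inhibitors, which block the kinases CDK4 and CDK6 and so keep the retinoblastoma protein in the form that holds back E2F target genes. It accumulates in senescent cells, which stop dividing but stay metabolically active and often secrete inflammatory proteins. After partial hepatectomy the remaining mouse hepatocytes leave quiescence, induce cyclin D1, copy their DNA and divide, while they keep making plasma proteins and bile for the whole animal.

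The 6 libraries held 16201879 to 25409451 reads in genes, and 11554 to 12404 genes had at least 10 reads. Levels are given as counts per library total after TMM scaling (CPM, the usual scale of edgeR), and differences as log2 fold changes of P16 over GFP, with their standard errors (SE), from an edgeR quasi-likelihood fit of all 12 libraries. The p-values carry a Benjamini-Hochberg adjustment that takes in every gene tested. A gene is said to have risen or fallen where the adjusted p was under 0.05. Alb, the albumin gene, ranged from 50304 to 56452 CPM in the controls and from 56852 to 61401 CPM with P16. The Y-linked Ddx3y was read at 40.5 to 52.0 CPM in all 6 mice. None of the 20 macrophage and 19 endothelial markers tested passed. Their summed levels were 115.5 to 192.1 and 92.7 to 144.6 CPM in GFP mice, against 134.3 to 162.4 and 105.5 to 152.2 CPM in P16 mice. Replicate 2 of the P16 mice lay apart: the first principal component, with 39.88% of the variance, placed it at 53.7, the other P16 mice at 11.2 and 12.9, and the GFP mice between -27.9 and -24.3. Reads outside annotated genes were 3.62 to 3.92% of a GFP library and 9.8, 5.31 and 4.39% of P16 libraries 1 to 3. Mitochondrial reads were 7.77 to 9.95% in GFP and 9.17, 14.29 and 13.61% in P16 libraries, and the 50 most abundant genes took 34.58 to 35.71% and 37.7 to 43.65%. The part of these in the results was not tested. In bulk RNA, fewer cells that express a gene and less of its RNA per cell cannot be told apart.

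At 48 h 280 of 12257 genes (2.28%) differed between P16 and GFP hepatocytes. Of these 152 (1.24%) were higher and 128 (1.04%) lower in P16 mice, and 273 were protein-coding. At an unadjusted p under 0.05 there were 1137 higher genes (9.28%) and 1005 lower genes (8.2%). The differences were mostly moderate, since 76 of the 280 changed by a factor of at least 2. The higher genes included chaperones of the endoplasmic reticulum (ER), plasma proteins of the acute phase and ribosomal proteins. The lower genes included cyclin D1, the receptor gene Erbb3, a transcription factor of the differentiated hepatocyte, major urinary proteins and genes of cell adhesion. DESeq2 called 707 of 11779 genes (6%), 279 of the 280 among them, and limma-voom 355 (2.9%), with 255 of the 280.

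The number of calls depended on which mice were in the fit. Without replicate 2 of the P16 mice 18 genes were called, all of them among the 280. Without GFP replicate 1, 2 or 3 the count was 28, 27 and 10, and without P16 replicate 1 or 3 it was 407 and 169. Of the genes described here, those that kept their call without P16 replicate 2 were Sdf2l1, Calr, Pdia4, Fgb, Fgg, Mbl1, Serpina10, Banp, Erbb3, Abhd2, Irf5, Tcp11l2, Ugt3a1, Mup1 and Mup7, so Cdkn2a and Ccnd1 did not. In none of the 21 alternative fits did any of the 280 genes turn its direction.

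**Figure D1:**
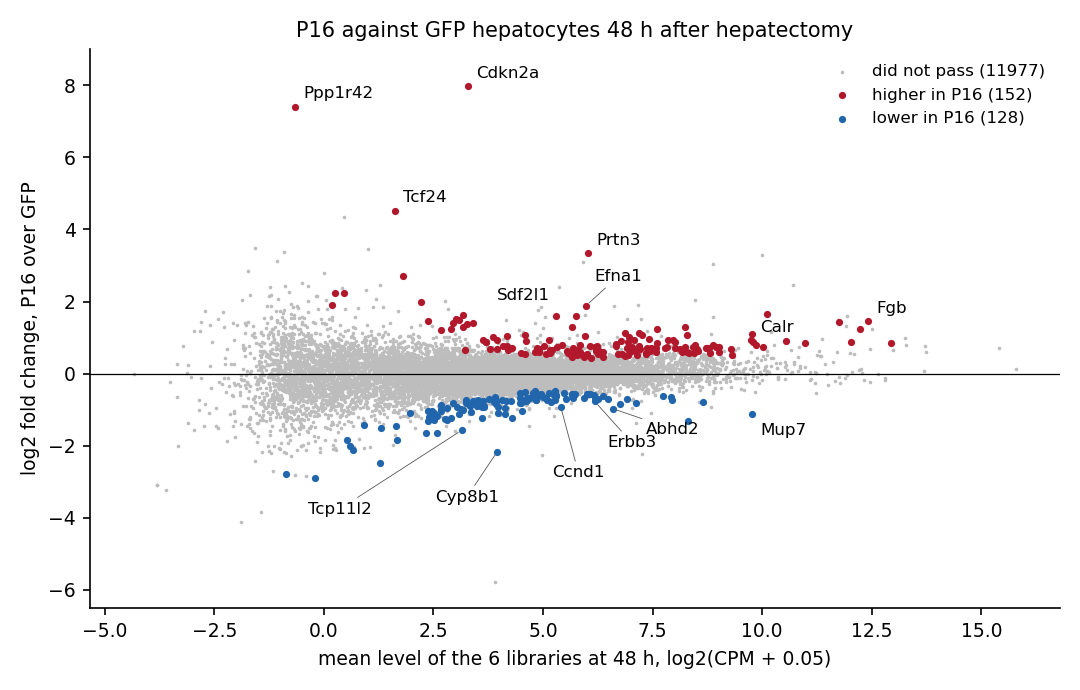
Difference between P16 and GFP hepatocytes (vertical axis, log2 fold change) against the mean level in the 6 libraries (horizontal axis, log2 CPM), 1 point a gene, with the 152 higher genes in red and the 128 lower genes in blue. Red points extend to the most abundant genes on the right, Fgb among them, and blue points lie mostly at low to middle levels; the height of Ppp1r42, which had 0 CPM in all GFP mice, depends on the prior count of the fit.

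Cdkn2a, the mouse gene of P16, had 256, 425 and 402 reads in the P16 libraries and 0, 5 and 0 in the GFP libraries. This is 12.8, 26.2 and 18.8 CPM in P16 mice against a mean of 0.0837 ± 0.145 CPM (SD, n = 3) in GFP mice (log2 difference 7.97, SE 1.30, adjusted p = 0.0385). Whether the vector carries the mouse or another P16 sequence is not given in the labels, so how much of its transcript these reads hold is not known, and counts per gene do not separate transcripts of the vector from those of the mouse locus. The related inhibitor Cdkn2b had at most 14 reads in a library and was not tested.

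Cyclin D1, the partner of the kinases that P16 inhibits, fell in P16 mice. Ccnd1 (chromosome 7, 144929931 to 144939925, minus strand, GRCm38) stood at 49.8, 51.8 and 63.8 CPM in GFP mice and at 34.4, 25.1 and 28.2 CPM in P16 mice. The groups did not overlap, and the fall was 1.88-fold (log2 difference -0.91, SE 0.19, adjusted p = 0.0223). Of 20 tested D cyclins, CDK4/6, Rb family members and INK4 and CIP inhibitors it alone passed, 5% against 2.28% of all genes. Cdkn2a, given above, is not counted in the list, and the list median was -0.22, against -0.0025 over all genes. Cdk4, the kinase bound by cyclin D1, had 32.7, 41.2 and 39.0 CPM in GFP and 30.8, 27.9 and 28.6 in P16 mice (log2 difference -0.37, SE 0.13, adjusted p = 0.140). Cdkn1a, the CIP inhibitor p21, overlapped between the groups, at 41.5, 63.9 and 44.6 against 57.2, 26.9 and 57.5 CPM.

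The listed genes of replication and mitosis did not pass the test. None of 40 replication genes and none of 44 mitosis genes passed, with medians of 0.05 and -0.04. Of them 1 and 4 had an unadjusted p under 0.05, against 17.5% of all genes. Mki67, the proliferation marker, had 98.8, 88.0 and 78.9 CPM in GFP and 87.1, 79.3 and 111 in P16 mice (log2 difference 0.06, SE 0.13, adjusted p = 0.866). Top2a, the topoisomerase of dividing cells, had 47.7, 37.4 and 53.6 against 41.3, 46.5 and 53.5 CPM. Mcm2, a subunit of the replicative helicase, was at 19, 21.1 and 31.8 against 18.2, 16.4 and 19.3 CPM (log2 difference -0.42, SE 0.22, adjusted p = 0.355). These 3 genes overlapped between the groups, and the SE of 0.13 for Mki67 leaves room for a modest difference either way. Top2a was picked after its values were seen. Of the mitosis genes 5 were higher and 3 lower in P16 mice with no overlap, against 14.8% and 13.4% of all genes. The 2 mitosis genes with the lowest p went opposite ways. Kif20a, a kinesin of cytokinesis, was at 34.8, 26.9 and 22.7 against 19.7, 8.14 and 14.8 CPM (log2 difference -0.98, SE 0.29, adjusted p = 0.0871). Cdk1, the mitotic kinase, was at 60.3, 72.8 and 65.3 against 83.9, 90.9 and 118 CPM (log2 difference 0.56, SE 0.20, adjusted p = 0.161). DESeq2 and limma-voom each called 1 mitosis gene lower, and the edgeR fit of the 48 h libraries alone called Cdk1 higher.

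Markers of senescence other than Cdkn2a did not pass either. None of 15 tested markers rose or fell. Of these 5 had an unadjusted p under 0.05, all of them lower in P16 mice, against 8.2% of all genes. The 2 with the lowest p were F2r, given below, and Bcl2l1. Bcl2l1 was at 31.3, 41.4 and 35.7 CPM in GFP and 28.3, 22.25 and 25.7 CPM in P16 mice, with no overlap (log2 difference -0.51, SE 0.15, adjusted p = 0.0779). Lmnb1, the lamin B1 gene that is lost in many senescent cells, had 25.0, 22.5 and 18.6 CPM in GFP and 14.4, 13.7 and 12.7 in P16 mice, with no overlap (log2 difference -0.70, SE 0.21, adjusted p = 0.0882). Lmnb1 was chosen for mention after its values were seen. None of 20 tested genes of the senescence-associated secretory phenotype passed, with a median of 0.36. At an unadjusted p under 0.05, 3 were higher, against 9.28% of all genes. The chemokine Cxcl1 had the lowest p of them. It was at 14.3, 9.74 and 13.6 CPM in GFP mice and 53, 142 and 126 CPM in P16 mice (log2 difference 3.09, SE 0.65, adjusted p = 0.0522). The inflammatory cytokine Il6 had 5 reads in 1 GFP library and 0 in the other 5.

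Thbd and F2r, the thrombomodulin and thrombin receptor genes that the study's title names, did not pass. Thbd had 3.11, 3.81 and 2.10 CPM in GFP mice and 3.70, 6.10 and 3.17 CPM in P16 mice, which overlapped. F2r was at 24.2, 23.4 and 24.6 CPM in GFP mice and at 13.5, 8.07 and 15.3 CPM in P16 mice, so every P16 mouse was below every GFP mouse (log2 difference -0.96, SE 0.28, adjusted p = 0.0871).

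**Figure D2:**
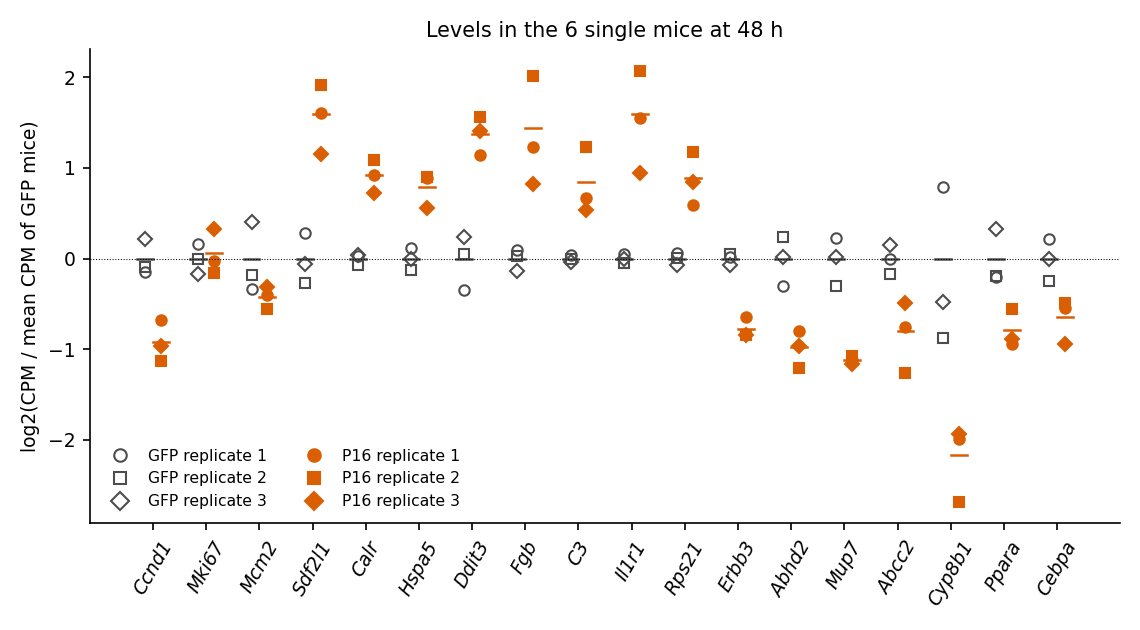
Levels of 18 genes in the 6 mice at 48 h as log2 of the ratio to the mean CPM of GFP mice (vertical axis), with open symbols for GFP mice, filled symbols for P16 mice, a symbol shape for each replicate number and short lines at the group means. Mki67 and Mcm2 overlap between the groups, the other 16 genes do not, and P16 replicate 2 is the highest of the P16 mice for Fgb, C3 and Il1r1.

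Chaperones and folding enzymes of the ER were higher in P16 hepatocytes as a group. Of 37 tested members 10 rose and none fell, 27.03% of the list against 2.28% of all genes. The median was 0.47, and in 26 all 3 P16 mice lay above all 3 GFP mice, against 14.8% of all genes. Sdf2l1 (chromosome 16, 17130138 to 17132383), part of an ER chaperone complex, had 32.4, 22.1 and 25.6 CPM in GFP mice and 81.2, 100.6 and 59.5 CPM in P16 mice, a rise of 3.00-fold (log2 difference 1.59, SE 0.21, adjusted p = 0.00662). Each P16 mouse was far above each GFP mouse, and the call held in all 21 alternatives. Calr, the lectin chaperone calreticulin, rose from 610.4, 568 and 616 CPM to 1130, 1275 and 985 CPM (log2 difference 0.92, SE 0.15, adjusted p = 0.00662). Hsp90b1, the ER form of HSP90, rose from 808, 769 and 743 CPM to 1229, 1358 and 1276 CPM (log2 difference 0.74, SE 0.13, adjusted p = 0.0117). Hspa5 or BiP, the central ER chaperone, rose from 738, 621 and 676 CPM to 1257, 1269 and 996 CPM (log2 difference 0.79, SE 0.20, adjusted p = 0.0445). For these abundant genes the 3 P16 mice were close to each other, replicate 2 included. The other 6 that rose were the disulfide isomerases Pdia3, Pdia4 and Pdia6, the co-chaperone Dnajb11, the secreted stress protein Manf and the selenoprotein Selenok, with log2 fold changes of 0.57 to 1.07.

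Members of the ER list that did not pass included Creld2, a stress-induced ER protein, at 33.6, 29.3 and 29.2 against 87.9, 118 and 76.2 CPM (adjusted p = 0.112). The sensor Ern1 (IRE1) ran the other way, at 42.1, 32.1 and 41.3 against 31.0, 23.1 and 26.1 CPM (log2 difference -0.53, SE 0.15, adjusted p = 0.0672). Its target Xbp1 was at 269, 230.2 and 206 against 224, 268 and 219 CPM, totals per gene that do not separate its transcript forms. These 3 were chosen after their values were seen. Without P16 replicate 2 the number of ER genes that rose was 3, and over the fits without 1 of the 6 libraries at 48 h it was 1 to 10, while the median stayed between 0.39 and 0.63. At 0 h, before the operation, the median of the same list was 0.09.

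The promoters of these genes are where the ER stress response element has been described, a bipartite motif in which CCAAT and CCACG stand 9 bases apart, bound by NF-Y and by the stress factor ATF6. In RefSeq promoters of GRCm38.p6 (250 bases before to 50 after the start of a gene, either strand) it occurred in 16 of 9609 tested genes, 0.167%, and in 37 of all 27025 genes with an entry, 0.137%. Of the 121 risen genes with an entry 4 held it and of the 96 fallen genes none, and all 4 were ER chaperones that rose, Calr, Hsp90b1, Hspa5 and Pdia6. Of 20 ER genes with an entry that did not pass, 5 held it, Creld2 among them. The stretches are shown because the motif is shared by 4 of the 9 risen ER genes with an entry, with both parts of the motif in capitals, 5′ to 3′ on the gene's own strand; a match describes the letters and shows no binding.
Calr (chr8:84847045-84847123, minus strand): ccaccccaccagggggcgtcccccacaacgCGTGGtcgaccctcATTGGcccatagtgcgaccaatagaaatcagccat
Hsp90b1 (chr10:86705503-86705581, minus strand): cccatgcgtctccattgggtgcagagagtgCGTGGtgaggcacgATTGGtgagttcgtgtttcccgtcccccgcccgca
Hsp90b1 (chr10:86705608-86705686, minus strand): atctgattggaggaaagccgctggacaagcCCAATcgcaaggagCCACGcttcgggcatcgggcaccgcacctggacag
Hspa5 (chr2:34771995-34772073, plus strand): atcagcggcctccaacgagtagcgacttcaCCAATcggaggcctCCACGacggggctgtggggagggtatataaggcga
Pdia6 (chr12:17266461-17266539, plus strand): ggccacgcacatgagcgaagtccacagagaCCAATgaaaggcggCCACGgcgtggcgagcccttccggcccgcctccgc
Where CGTGG comes before ATTGG, as in Calr and the first Hsp90b1 stretch, the motif lies on the opposite strand. Each part on its own is common, since CCACG stood in 51.8% and CCAAT in 43.3% of the promoters of tested genes.

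Other steps of the secretory pathway changed in fewer members. Of 45 genes of ER translocation, N-glycosylation and ER-to-Golgi transport 3 rose and none fell, with a median of 0.14. That is 6.67% of the list, against 2.28% of all genes. The 3 were the translocon subunits Sec61b and Sec61g and the translocon-associated Ssr4, with log2 fold changes of 0.74, 0.94 and 0.72. Sec61g, for example, had 86.1, 89.6 and 100.5 CPM in GFP mice and 147, 236 and 148 CPM in P16 mice. Of 28 genes of the integrated stress response, which slows translation and induces stress factors, 2 rose (7.14%, against 2.28% of all genes). Ddit3 (CHOP) rose from 4.16, 5.47 and 6.25 CPM to 11.7, 15.6 and 14.1 CPM (log2 difference 1.39, SE 0.31, adjusted p = 0.0317), and Atf5 from 236, 292 and 250.4 CPM to 391, 516 and 436 CPM. Atf4, the factor upstream of both, was at 123, 136 and 152 against 142, 161 and 137 CPM and was chosen after its values were seen. Bhlha15 (MIST1), a transcription factor of secretory cells, was also chosen after its values were seen. It rose from 1.19, 0.452 and 1.07 CPM to 11, 4.31 and 2.61 CPM (log2 difference 2.70, SE 0.58, adjusted p = 0.0295).

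Plasma proteins of the acute phase, which the liver secretes in inflammation, were higher in P16 mice. Of 29 tested genes 10 rose and none fell, 34.48% of the list against 2.28% of all genes. The median was 1.11, and 26 of the 29 fold changes were positive. The fibrinogen genes, neighbours on chromosome 3, had the lowest p-values of the list, though not its largest fold changes. Fgb had 3156, 3014 and 2680 CPM in GFP mice and 6954, 11942 and 5212 CPM in P16 mice (log2 difference 1.45, SE 0.22, adjusted p = 0.00662). Fgg rose from 2000, 1948 and 1573 CPM to 4408, 7326 and 3290 CPM and Fga from 3215, 2899 and 2488 CPM to 6490, 9281 and 4494 CPM. In all 3 genes P16 replicate 2 was highest and P16 replicate 3 lowest of the P16 mice, and no P16 mouse fell into the GFP range. Lrg1, a leucine-rich glycoprotein, rose from 548, 564 and 477 CPM to 1362, 2483 and 1149 CPM (log2 difference 1.65, SE 0.35, adjusted p = 0.0385). The copper carrier Cp, Crp, the lipopolysaccharide-binding Lbp, Saa4, Serpina3m and C3 rose with log2 fold changes of 0.67 to 1.29.

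The main inducible serum amyloids did not pass, and their spread was wide. Saa1 was at 2442, 1951 and 2230 CPM in GFP mice and 4010, 10217 and 2161 CPM in P16 mice (log2 difference 1.31, SE 1.31, adjusted p = 0.682), with P16 replicate 3 inside the GFP range. Saa1 was chosen after its values were seen, and its reads may be shared with the near-identical Saa2. Averaged over the 29 genes, P16 replicates 1, 2 and 3 stood 0.80, 1.70 and 0.46 log2 units above the mean of the GFP mice, which themselves ranged from -0.07 to 0.03. Without P16 replicate 2 the list median was 0.66 and 2 members rose, and over the fits without 1 library at 48 h 0 to 12 rose. At 0 h the median of the list was -0.56.

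Some complement and coagulation genes rose as well. Of 21 complement genes 4 rose and none fell (19.05%, against 2.28% of all genes), with a median of 0.34. C3, the central component, rose from 5807, 5651 and 5488 CPM to 8985, 13270 and 8184 CPM (log2 difference 0.84, SE 0.19, adjusted p = 0.0299). Mbl1, a mannose-binding lectin, rose from 117, 112 and 117 CPM to 197, 308 and 174 CPM, and the pore subunit C8a rose from 519 ± 15.1 to 748 ± 106 CPM (SD, n = 3). Of 25 coagulation and fibrinolysis genes 4 rose (16%, against 2.28% of all genes), with a list median of 0.28. They were the kininogens Kng1 and Kng2, the protein Z-dependent inhibitor Serpina10 and coagulation factor F7, with log2 fold changes of 0.58 to 1.29. Without P16 replicate 2 a single gene of each list rose. Trf, which encodes transferrin, rose from 87.1, 58.0 and 74.6 CPM to 110, 232 and 136 CPM. It alone of 13 tested negative acute phase and transport proteins passed (7.69%, against 2.28% of all genes).

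Cytokine pathways known to drive acute phase genes held 3 that rose. Of 24 genes of IL-6, STAT3 and NF-kappaB signalling these 3 passed (12.5%, against 2.28% of all genes), with a median of 0.13. Il1r1, the interleukin-1 receptor, had 20.2, 18.8 and 19.4 CPM in GFP mice and 57.0, 81.8 and 37.5 CPM in P16 mice (log2 difference 1.59, SE 0.32, adjusted p = 0.0360). The nuclear NF-kappaB partners Nfkbiz and Bcl3 rose from means of 5.80 ± 1.30 and 23.9 ± 3.92 CPM to 15.3 ± 2.01 and 40.7 ± 9.46 CPM (SD, n = 3). Socs3, the feedback inhibitor that STAT3 induces, was at 16.7, 12.4 and 11.1 against 37.5, 71.2 and 35.6 CPM without passing (adjusted p = 0.142) and was chosen after its values were seen. A STAT element (TTCNNNGAA, either strand) lay in the promoters of 2 of 8 risen acute phase genes with an entry, Fga and Fgb, in 4 of 16 that did not pass and in 8.27% of tested genes.

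Prtn3, which encodes proteinase 3, a serine protease known from neutrophil granules, had the largest rise after Cdkn2a among genes of at least 5 CPM. It went from 13.4, 14.1 and 7.46 CPM in GFP mice to 69.0, 210.1 and 76.9 CPM in P16 mice (log2 difference 3.35, SE 0.58, adjusted p = 0.0317), with 1380, 3409 and 1647 reads in P16 libraries. The neutrophil list has 15 markers, and 1 other, Lcn2 (lipocalin 2), was tested. Lcn2, which is also on the acute phase list, was at 219, 289 and 210.0 against 607, 1141 and 369.8 CPM, with no overlap (log2 difference 1.56, SE 1.14, adjusted p = 0.548). The summed level of the list was 217.5 to 303.2 CPM in GFP and 446.7 to 1351 in P16 mice, most of it Lcn2. The other 13 markers had at most 14 reads in a library: Ly6g and Retnlg had 0 reads in all 6 libraries, S100a8 at most 6, Mpo at most 4 and Elane at most 14. Prtn3 overlaps the gene Plppr3, which stood at 1.31, 0.502 and 1.91 against 0.601, 1.05 and 1.77 CPM.

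**Figure D3:**
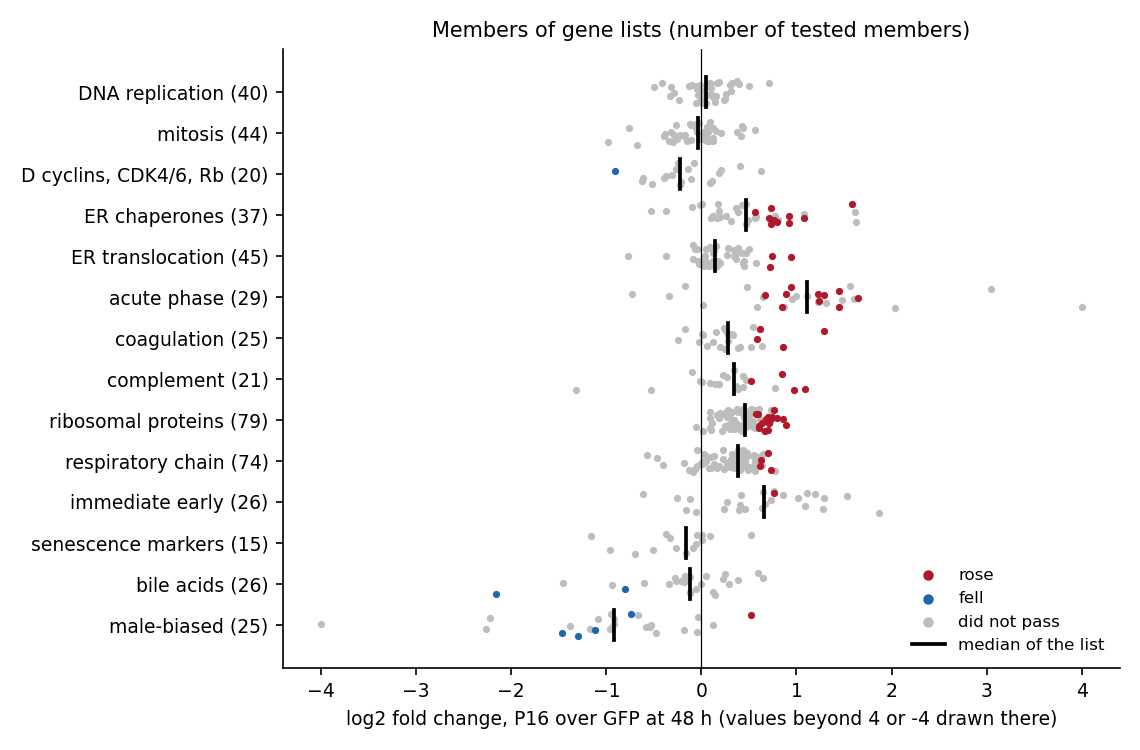
Log2 fold changes of P16 over GFP at 48 h (horizontal axis) for the tested members of 14 gene lists, 1 point a gene, red where it rose, blue where it fell and grey where it did not pass, with a black line at each list's median and the number of tested members in brackets. Acute phase genes have a median of 1.11, ER chaperones 0.47 and ribosomal proteins 0.46, while replication and mitosis genes centre at 0.05 and -0.04 and male-biased genes at -0.92.

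Ribosomal protein genes were higher nearly throughout. Of 79 tested members 18 rose and none fell, 22.78% of the list against 2.28% of all genes. Before the operation, at 0 h, the median of the list was 0.27, and at 48 h it was 0.46. In 78 members the fold change at 48 h was positive. The largest was Rps21, a small-subunit protein, at 189.7, 182 and 173 CPM in GFP mice and 274, 409 and 326 CPM in P16 mice (log2 difference 0.89, SE 0.15, adjusted p = 0.00949). Rpl38, of the large subunit, rose from 146, 121 and 143 CPM to 189.9, 310.1 and 246 CPM. Such genes have many processed pseudogenes that can share their reads. Of 42 genes for factors that build ribosomes none passed, with a median of 0.16. At an unadjusted p under 0.05, 2 were higher, against 9.28% of all genes.

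Nuclear genes of the respiratory chain were higher by a smaller margin. Of 74 tested members 4 rose and none fell (5.4%, against 2.28% of all genes), with a median of 0.38. At an unadjusted p under 0.05, 44 were higher, against 9.28% of all genes. The 4 were Uqcr11, a subunit of complex III, Ndufa7 and Ndufs6, of complex I, and Atp5e, of the ATP synthase, with log2 fold changes of 0.62 to 0.73. Uqcr11, for example, stood at 142, 137 and 159 CPM in GFP mice and 196, 292 and 226 CPM in P16 mice. The list median was 0.28 at 0 h, before the operation.

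These genes are short, and the difference between the groups moved with the length of a gene. The median exon length was 4348 bases over all genes tested, 2566 bases among those that rose and 5276 bases among those that fell. Across genes the log2 fold change had a Spearman correlation of -0.19 with exon length, given as a description, since genes share their libraries. The level of a gene relative to the mean of the GFP libraries at 48 h had correlations of -0.127, -0.222 and -0.130 with length in the P16 libraries. For each GFP library, taken relative to the mean of the other GFP libraries, they were 0.074, -0.137 and 0.060. With a length trend of each library taken out, chosen after seeing the data, 244 genes were called, 204 of the 280 among them. Of the ribosomal proteins 10 then rose, with a median of 0.33, and of the respiratory chain genes none, with a median of 0.19. The ER chaperones had 11 that rose and a median of 0.53, and the acute phase genes 7 and 0.97. Without P16 replicate 2 none of the ribosomal and respiratory genes rose, and their medians were 0.32 and 0.26.

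**Figure D4:**
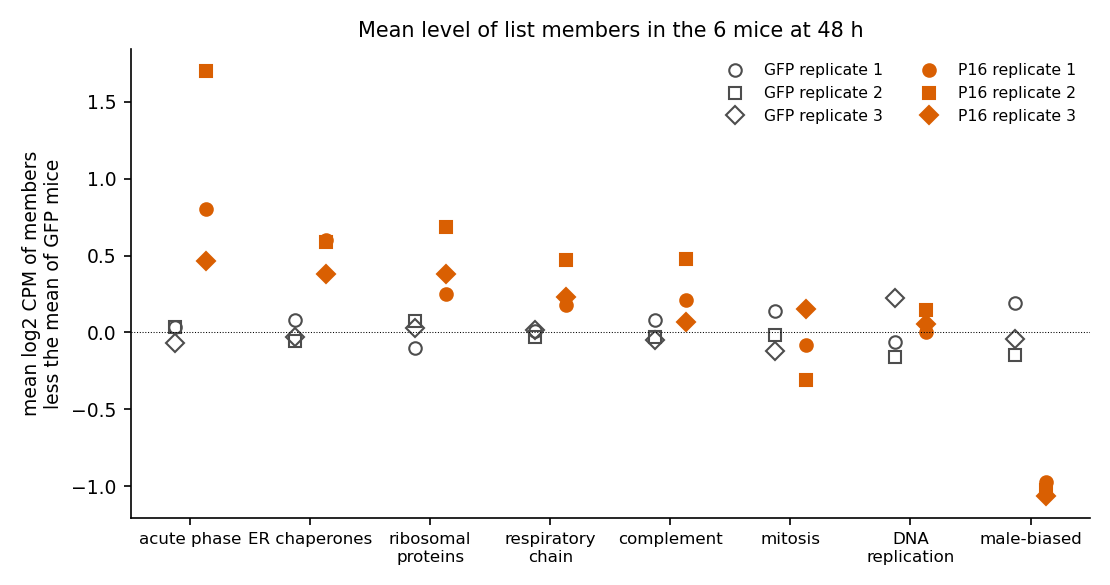
Mean log2 CPM of the tested members of 8 gene lists in each of the 6 mice, less the mean of the GFP mice (vertical axis), with open symbols for GFP mice, filled symbols for P16 mice and a symbol shape for each replicate number. P16 replicate 2 stands highest for acute phase genes, at 1.70, and for ribosomal proteins, at 0.69, whereas the 3 P16 mice lie together for the male-biased genes, between -1.07 and -0.97.

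Erbb3 and Etv5 were among the genes that fell, and the spread of Erbb3 was small. Erbb3 (chromosome 10, 128567523 to 128589652, minus strand), the neuregulin-binding member of the EGF receptor family, had 92.6, 94.8 and 86.9 CPM in GFP mice and 58.7, 50.9 and 50.8 CPM in P16 mice (log2 difference -0.77, SE 0.12, adjusted p = 0.00662). The call held in all 21 alternatives. Etv5, an ETS factor induced by ERK, fell from 9.13, 10.9 and 8.25 CPM to 4, 2.77 and 5.04 CPM (log2 difference -1.25, SE 0.28, adjusted p = 0.0317). Other genes of the RAS and ERK route were picked after their values were seen. The repressor Erf and the inhibitor Spred2 fell by 0.73 and 1.05 on the log2 scale. Dusp6, the ERK phosphatase that ERK itself induces, went the other way, from 55.7, 47.3 and 46.0 CPM to 87.0, 75.8 and 90.7 CPM (log2 difference 0.77, SE 0.17, adjusted p = 0.0317).

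Dusp6 was the single gene of 26 immediate early genes to pass (3.85%, against 2.28% of all genes), while the list median was 0.66. Fos and Junb, subunits of AP-1, were at 42.4 ± 4.19 and 77.6 ± 11.8 CPM in GFP mice and 155 ± 36.8 and 224 ± 57.6 CPM in P16 mice (SD, n = 3), with no overlap but adjusted p = 0.0838 and 0.0692. Both were picked after their values were seen. At 0 h the median of the list was 0.89.

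Of 18 markers of the differentiated hepatocyte 2 fell and none rose, 11.11% against 2.28% of all genes. The list median was -0.05. Cebpa, a factor of the quiescent liver, fell from 343, 248 and 293 CPM to 202, 210.2 and 154 CPM (log2 difference -0.65, SE 0.15, adjusted p = 0.0355). The 3 P16 mice lay below all 3 GFP mice.

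Bile acid genes fell in 2 of 26 members, 7.69% against 2.28% of all genes. Cyp8b1, the sterol 12-hydroxylase that sets the share of cholic acid, had 43.9, 13.8 and 18.2 CPM in GFP mice and 6.36, 3.94 and 6.63 CPM in P16 mice (log2 difference -2.16, SE 0.44, adjusted p = 0.0412). Abcc2, the canalicular pump for conjugated bilirubin, fell from 514, 457 and 571 CPM to 304, 214 and 367 CPM (log2 difference -0.80, SE 0.18, adjusted p = 0.0317). The rate-limiting enzyme Cyp7a1 was at 73.2, 12.6 and 26.4 against 15.2, 16.6 and 9.47 CPM and overlapped (adjusted p = 0.285). The bile salt pump Abcb11 was at 357, 346 and 382 against 421, 366 and 485 CPM. Cyp7a1 and Abcb11 were picked after their values were seen, and the list median was -0.12.

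Few listed genes of fat metabolism passed, 5.56% of the oxidation list and 6.90% of the lipogenesis list, against 2.28% of all genes. Ppara, the nuclear receptor that drives fatty acid oxidation, fell from 16, 16.1 and 23.2 CPM to 9.61, 12.5 and 9.99 CPM (log2 difference -0.79, SE 0.19, adjusted p = 0.0373), and Acadvl, a dehydrogenase of very long chains, fell from 93.6 ± 5.40 to 57.9 ± 16.8 CPM (SD, n = 3). They were the 2 of 36 oxidation and ketogenesis genes to pass, and the list median was -0.07. Of 29 genes of lipogenesis and triglyceride handling Apoa4 and Lpin1 fell, with a list median of -0.05. Over the fits without 1 library at 48 h, 0 to 1 oxidation genes and 0 to 2 lipogenesis genes fell. Apoa4, an apolipoprotein of secreted lipid particles, went from 298, 523 and 542 CPM to 203, 138 and 207 CPM (log2 difference -1.31, SE 0.30, adjusted p = 0.0469). Lpin1, a phosphatidate phosphatase, is also on the list of 32 fasting and FoxO-responsive genes, of which 9.38% passed. There it fell with the transcription factor Foxo3 and with Crebrf, with log2 fold changes of -1.24, -0.68 and -1.32. Crebrf stood at 6.60, 5.32 and 9.97 CPM in GFP mice and 3.30, 3.08 and 2.38 CPM in P16 mice.

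Other metabolic lists held few calls. Of 42 genes of the urea cycle and amino acid breakdown the transaminase Gpt2 and the branched-chain dehydrogenase subunit Bckdha fell, by 0.64 and 0.77 on the log2 scale. The glycolytic Aldoa was the 1 of 29 genes of glucose metabolism that rose, and Tm7sf2, a sterol reductase, the 1 of 28 of cholesterol synthesis and uptake. Of these lists 4.76%, 3.45% and 3.57% passed, against 2.28% of all genes. None of 43 cytochrome P450 genes passed, with 8 higher and 5 lower at an unadjusted p under 0.05, against 9.28% and 8.2% of all genes. Of 38 conjugating enzymes Ugt3a1 and Ugt1a6b fell (5.26%, against 2.28% of all genes). Ugt3a1 went from 18.4, 13.9 and 16.9 CPM to 8.91, 9.12 and 8.26 CPM (log2 difference -0.91, SE 0.14, adjusted p = 0.00662). None of 38 proteasome genes and none of 31 interferon-stimulated genes passed. Among 40 genes of autophagy and lysosomes 7.5% passed, namely Tcp11l2, given below, and the cholesterol exporters Npc1 and Npc2. Their log2 fold changes were -1.57, -0.55 and 0.43.

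Genes that are expressed more in male than in female mouse liver lay lower in P16 mice in most members. Of 25 tested genes 4 fell and 1, the complement gene C8a, rose, 20% of the list against 2.28% of all genes. The median was -0.92, and in 18 all 3 P16 mice lay below all 3 GFP mice, against 13.4% of all genes. Mup7, a major urinary protein gene, had 1391, 966 and 1201 CPM in GFP mice and 545, 564 and 529.5 CPM in P16 mice (log2 difference -1.12, SE 0.19, adjusted p = 0.00892). Mup1 fell from 10.5, 10.1 and 8.90 CPM to 4.40, 4.13 and 3.55 CPM (log2 difference -1.29, SE 0.20, adjusted p = 0.00662), a call that held in all 21 alternatives. Mup2 and Susd4 fell as well. Mup genes are near-identical, so the reads of any member may belong in part to another.

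Male-biased genes outside that family mostly lay lower without passing. Cyp7b1, an oxysterol hydroxylase, was at 222, 145 and 144 against 103, 83.0 and 80.6 CPM (log2 difference -0.94, SE 0.23, adjusted p = 0.0505). Moxd1, a copper-dependent oxidase, was at 26.8, 24.2 and 36.4 against 0.25, 1.05 and 0.373 CPM (log2 difference -5.77, SE 1.92, adjusted p = 0.166). Hsd3b5, Elovl3 and Slco1a1 overlapped between the groups. These 5 were picked after their values were seen. The 3 P16 mice were alike here, at -0.97, -1.02 and -1.07 log2 units from the GFP mean, so the median stayed at -0.83 without replicate 2, and at 0 h it was 0.03.

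Among the genes on no list or with the lowest p-values, several falls were uniform. Tcp11l2, a gene of the T-complex 11 family, fell from 13.8, 10.1 and 15.5 CPM to 4.55, 4.50 and 4.25 CPM (log2 difference -1.57, SE 0.21, adjusted p = 0.00570), the lowest p of all genes. Abhd2, a lipid hydrolase, fell from 104, 151 and 129.6 CPM to 73.6, 55.6 and 65.8 CPM (log2 difference -0.98, SE 0.15, adjusted p = 0.00662). Irf5, an interferon regulatory factor, fell from 21.5, 22.0 and 20.9 CPM to 9.16, 10.8 and 10.1 CPM, and was picked after its values were seen. With Sdf2l1, Erbb3, Mup1 and Ugt3a1, these make up the 7 genes whose call held in all 21 alternatives. The ubiquitin ligase Rnf125, the neurite outgrowth gene Gprin3, Olig1 and Gas7 were also among the 12 largest falls, with log2 fold changes of -1.65, -1.27, -1.20 and -1.22. Among the largest rises were the ephrin ligand Efna1 (from 30.2, 31.3 and 19.1 CPM to 75.9, 136 and 85.1 CPM), Tspyl2, Banp, Aldoc and Wfdc2, with log2 fold changes of 1.47 to 1.88.

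A set of adhesion genes among the falls was seen after the values were known and is given as a description. Vcl, the vinculin gene, fell from 7.82, 7.78 and 8.48 CPM to 4.15, 1.42 and 4.15 CPM (log2 difference -1.29, SE 0.30, adjusted p = 0.0355). The focal adhesion genes Pxn and Bcar1 and the LIM protein genes Ajuba and Lmo7 fell by 0.57, 0.56, 1.03 and 0.89 on the log2 scale. Also seen afterwards was the receptor Notch1 with its coactivator Maml1, which fell from 17.6, 16.2 and 12.8 CPM to 8.36, 9.18 and 9.80 CPM and from 14, 12.8 and 13.1 CPM to 7.71, 7.4 and 8.17 CPM. On chromosome 1, Tcf24 and Ppp1r42 both overlap the gene E330040D14Rik. Their reads may belong in part to it, since the annotation and strand setting of the counting are unknown. Tcf24 rose from 0.256, 0.151 and 0.326 CPM to 7.76, 7.33 and 2.38 CPM, and Ppp1r42 had 0 CPM in the GFP mice and 1.40, 1.36 and 0.747 CPM in the P16 mice.

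At 0 h, before the operation, 27 of the 12257 genes (0.22%) passed between P16 and GFP mice. Cdkn2a did not pass there, although it had 620, 105 and 355 reads in P16 and 0, 0 and 0 in GFP libraries (adjusted p = 0.0914), so the low count does not show that other genes were alike. Erbb3 was the 1 gene also called at 48 h, in the opposite direction. Of the 280 genes called at 48 h 181 had the same sign at 0 h. The test of the difference between the times, the interaction of vector and time, passed for 12 genes (0.0979%), of which 9 were called at 48 h. Erbb3 had a mean of 91.2 CPM in GFP and 144 in P16 mice at 0 h (log2 fold change 0.65, adjusted p = 0.0298), so its difference turned from higher to lower (interaction -1.43, adjusted p = 0.00131). Tcp11l2, Mup1, Mup7 and Ugt3a1 had log2 fold changes of 0.28, 0.21, 0.38 and 0.14 at 0 h and interactions of -1.85, -1.50, -1.49 and -1.04. C3 had -0.56 at 0 h and an interaction of 1.40 (adjusted p = 0.04705). The other 3 of the 9 were Casp9, Bcar1 and Zdhhc20. At 0 h the medians of the macrophage and neutrophil marker lists were -1.68 and -2.70, against -0.06 and 2.45 at 48 h, with 2 neutrophil markers tested, and the part of this in the differences between the times was not tested. The interaction has wider errors than the comparison at 48 h, so for the remaining genes a difference between the times was not detectable at this depth and number of mice.

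**Figure D5:**
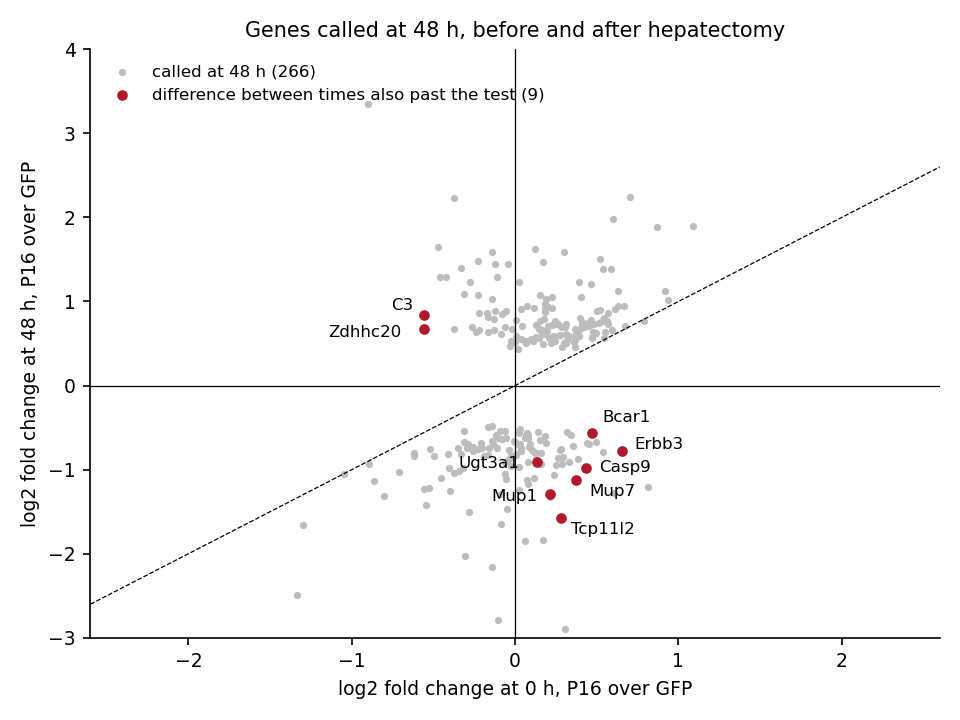
Log2 fold change of P16 over GFP at 48 h (vertical axis) against the same at 0 h (horizontal axis) for the genes called at 48 h, with the dashed line at equal values and the 9 genes whose difference between the times passed the test in red; 5 genes beyond the axes, Cdkn2a among them, are not drawn. The red genes lie in the upper left (C3 and Zdhhc20) and lower right (Erbb3 and 6 others), higher at one time and lower at the other.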

How the data were processed

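RNA from isolated hepatocytes of 12 mice, in 4 groups of 3, was sequenced, and the authors deposited whole-number read counts per gene. HTSeq, SAMtools, Picard, STAR 2.5.0c and Trim Galore are named as tools, with no role given, and mm10 as the build, per the submitters' processing notes. Neither annotation nor strandedness of the counting is given there. Of 31053 gene identifiers 31011 were found in GENCODE vM21, which gave coordinates and exon lengths; 27 symbols turned into dates by a spreadsheet were restored through the identifiers. Reads outside genes were 3.62 to 9.8% and ambiguous reads 4.87 to 8.8% of a library and stayed out of library sizes.

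Counts were filtered with filterByExpr, scaled by TMM and fitted with edgeR 4.0.16 (R 4.3.3; robust quasi-likelihood, 4 group means), with Benjamini-Hochberg adjustment and a threshold of 0.05. The interaction of vector and time came from the same fit. DESeq2 1.42.0, limma-voom (limma 3.58.1), other scalings and filters, the 48 h libraries alone, a replicate block, leaving out each library and a trend on exon length were alternatives. The statistical scripts were tested on simulated counts. Each group and time has 3 mice per the labels' protocols, and a library is taken as 1 mouse.

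Genes named by rule were Cdkn2a, Ccnd1, Cdkn1a, Mki67, Thbd and F2r, the 12 largest rises and falls with a mean of at least 5 CPM and no overlap, the 8 lowest p-values, and of each of 40 lists up to 6 called members, or the 2 lowest p-values where none passed. Some genes are not reported here. The members and lists were chosen with earlier results of these data known. Same-numbered replicates correlated in their deviations by 0.022, 0.015 and -0.048, so the numbers were not taken as pairs. Promoters came from RefSeq (GRCm38.p6).

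Genes that overlap another and may share its reads, the strand setting being unknown, include Ccnd1, Pdia3, Pdia4, Pdia6, Hsp90b1, Manf, Ddit3, Atf5, Fgg, Cp, Trf, Bcl3, Prtn3, Banp, Irf5, Casp9, Acadvl, Cebpa, Apoa4, Vcl, Olig1, Gas7, Bckdha, Aldoa, Tm7sf2, Npc1, Junb, Notch1 and Maml1. Ugt1a6b shares exons with its family.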

Additional observations from a re-analysis of the deposited data

Results flagged for a closer look

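9 genes described above differed between 48 h and 0 h in their P16 against GFP difference, by the edgeR quasi-likelihood test of the interaction of vector and time. The interaction was -1.428 for Erbb3 and -1.852 for Tcp11l2 on the log2 scale. It was -1.505 for Mup1, -1.494 for Mup7, -1.413 for Casp9, -1.045 for Ugt3a1 and -1.035 for Bcar1. For C3 it was 1.401 and for Zdhhc20 1.234. All 9 had a difference of one sign at 0 h and of the other at 48 h, and 1 of them, Erbb3, passed the test at both times. At 0 h the medians of the macrophage and neutrophil marker lists were -1.68 and -2.70, against -0.06 and 2.45 at 48 h, and their part in these values was not tested.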

How the results depend on the processing

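None of the 280 genes turned its direction in any of the 21 alternatives that tested it, and 7 kept their call throughout. The count of 280 at 48 h was 707 with DESeq2, 538 with no filter on low counts and 762 with the 48 h libraries alone, which have their own estimate of the spread. It ranged from 10 to 661 over the fits that leave out 1 library, and from 18 to 407 where that was a P16 library of 48 h; the cause was not tested. With the replicate block it was 150, 138 of the 280 among them, but the replicate numbers did not pair the samples. The 12 genes whose difference changed with time were 225 with DESeq2, 1 with limma-voom, 6 with upper quartile scaling, 173 with no filter, 44 with the replicate block and 29 with the exon length trend, and 1 to 71 without 1 library.

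Of the values of 121 genes named above, 1988 stayed on their side of the threshold with their direction, 487 lost and 48 gained a call, and 16 reversed, all in 7 genes that had not passed. Without 1 library the log2 fold change ranged from -0.246 to 0.1917 for Cdkn1a, -0.09037 to 0.1491 for Mki67, -0.1044 to 0.145 for Top2a, -0.3477 to 0.4217 for Elovl3, -0.03604 to 0.2479 for Slco1a1, -0.6046 to 0.3039 for Plppr3 and -0.09746 to 0.1185 for Xbp1, which was -0.01697 with the exon length trend. With 3 mice a group and a median SE of 0.2 on the log2 scale, differences of small size in genes that did not pass were not detectable.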
